A study of Homo sapiens with 2 samples.

Results

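MYC and 9 genes of the network around its partner MAX were followed after knockdown of SUB1 in PC3, a prostate cancer cell line derived from a bone metastasis. The genes were MYC, MYCN, MYCL, MAX, MXD1, MXD3, MXD4, MXI1, MNT and MLX. Their probes were found by the gene name on the array, older aliases included (MYCL is listed as MYCL1). This gave 22 probes of 41000 and 10 genes of 30482. Gene expression had been measured on 2 dual-colour Agilent whole human genome arrays of 1 slide. On each array, RNA of cells treated with non-targeting (Non-T) siRNA was labelled with Cy3. RNA of cells treated with SUB1 siRNA 1 or SUB1 siRNA 2 was labelled with Cy5. The siRNA duplexes were transfected transiently, a second time 24 h after the first, and RNA was taken at 72 h, counted from the first. The labels give no other difference in genotype or treatment between the groups.

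MYC, MYCN and MYCL are transcription factors that bind DNA as dimers with MAX, mostly at the sequence CACGTG, called an E-box, and drive growth and ribosome production. The MXD proteins (MXD1, MXD3, MXD4 and MXI1) and MNT compete for MAX at the same sites and repress transcription through SIN3 and histone deacetylases. MLX is the partner of the glucose-sensing factors MLXIP and MLXIPL, and it can also pair with MNT and some MXD proteins. MYC is often amplified or overexpressed in advanced prostate cancer. SUB1 (PC4) is a transcriptional coactivator, and the study asked which growth-related genes depend on it.

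Because these factors act through the E-box and the network has been studied for feedback on its own genes, the 250 bases upstream of each start site in the RefSeq table of GRCh38.p14 were searched for CACGTG, which reads the same on both strands. The table held 12 windows for 9 of the 10 genes, with no entry for MYC. The E-box was present in 3 windows, those of MXD4, MNT and MLX, which is 25.0% of the 12. Of all 35116 windows in the table, 6.34% held it. A match is a description of the sequence and not evidence of binding. The 3 windows are shown 5′ to 3′ on the strand of the gene, with the E-box in capitals. MXD4 lies on the minus strand at chr4:2262110-2262359, with the E-box starting 238 bases before the start site. MNT lies on the minus strand at chr17:2401061-2401310, with the E-box starting 193 bases before it. MLX lies on the plus strand at chr17:42566850-42567099, with the E-box starting 50 bases before it.
MXD4: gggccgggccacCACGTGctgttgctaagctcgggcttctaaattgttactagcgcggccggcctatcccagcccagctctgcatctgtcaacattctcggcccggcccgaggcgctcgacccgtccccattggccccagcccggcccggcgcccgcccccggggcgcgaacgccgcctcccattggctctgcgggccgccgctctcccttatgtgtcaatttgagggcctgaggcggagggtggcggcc
MNT: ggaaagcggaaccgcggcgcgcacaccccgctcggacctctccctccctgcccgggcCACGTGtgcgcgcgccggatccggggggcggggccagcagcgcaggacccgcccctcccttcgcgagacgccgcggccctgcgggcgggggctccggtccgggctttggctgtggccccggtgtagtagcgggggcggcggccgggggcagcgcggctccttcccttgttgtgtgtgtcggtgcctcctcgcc
MLX: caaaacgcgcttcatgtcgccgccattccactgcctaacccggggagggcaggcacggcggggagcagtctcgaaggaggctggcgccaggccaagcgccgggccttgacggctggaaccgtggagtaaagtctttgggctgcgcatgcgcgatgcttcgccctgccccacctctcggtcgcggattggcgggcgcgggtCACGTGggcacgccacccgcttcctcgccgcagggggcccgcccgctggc

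With 1 array per siRNA, no value of a single siRNA has a biological replicate. Both arrays used Non-T siRNA as control, and whether it was the same RNA is not stated. No dye was swapped, so the knockdown and a dye bias of a probe cannot be told apart. Values are log2 ratios, SUB1 knockdown over Non-T, where 1 is a 2-fold increase. Over the 209 kept probes with 10 spots, the median SD among spots was 0.097 and 0.091 for dim probes, 0.078 and 0.069 for middle probes, and 0.066 and 0.069 for bright probes on the siRNA 1 and siRNA 2 array. This is error within an array and leaves out differences between cultures. The targeted gene SUB1 stood at -3.30 (siRNA 1) and -3.26 (siRNA 2), which left 10.2% and 10.4% of the control signal (limma adjusted p = 0.0248 for the mean). All 4 SUB1 probes were lower on both arrays, the least of them with -1.81 and -1.57. All 8 genes chosen as present in PC3 were well above background in Cy3 on both arrays (KRT8, KRT18, KRT19, EPCAM, VIM, CD44, MET and CAV1). Of 10 markers of other cell types, 5 were well above background (CD3E, CD14, PECAM1, COL1A1 and DCN), as were 54.3% of all gene spots on each array. RNA of whole cultures was measured, so fewer cells of a kind and less RNA per cell cannot be told apart.

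Of the 22 network probes, 18 were kept, and 9 of the 10 genes had at least 1 kept probe. No network gene changed by 2-fold on either array, against 0.817% of all 19218 genes with siRNA 1 and 1.68% with siRNA 2. Represented by its brightest probe, each gene had the same sign on both arrays. MYCN, MAX, MXD1, MXD4, MXI1 and MNT (6 genes) had ratios above 0, as did 38.1% of all genes on both arrays. MYC, MLX and MXD3 (3 genes) had ratios below 0, as did 30.3% of all genes. With siRNA 1 the gene ratios ran from -0.57 to 0.22 around a median of 0.12. With siRNA 2 they ran from -0.23 to 0.41 around a median of 0.22. The median of all genes was 0.024 on both arrays. None of the 9 genes passed an adjusted p of 0.05 in limma's test of the mean ratio (adjusted p from 0.196 to 0.513), where SUB1 was the only 1 of all genes to pass, 0.0052%. At an unadjusted p under 0.05 stood MYC, MXD1 and MLX, beside 20.9% of all genes. This test treats the siRNAs as 2 knockdowns and leaves out the spread of the control. Genes with far larger mean ratios did not pass it either, such as the kinase gene PLK1 (-1.57, limma adjusted p = 0.112). Not passing therefore does not show that a network gene was unchanged.

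**Figure D1:**
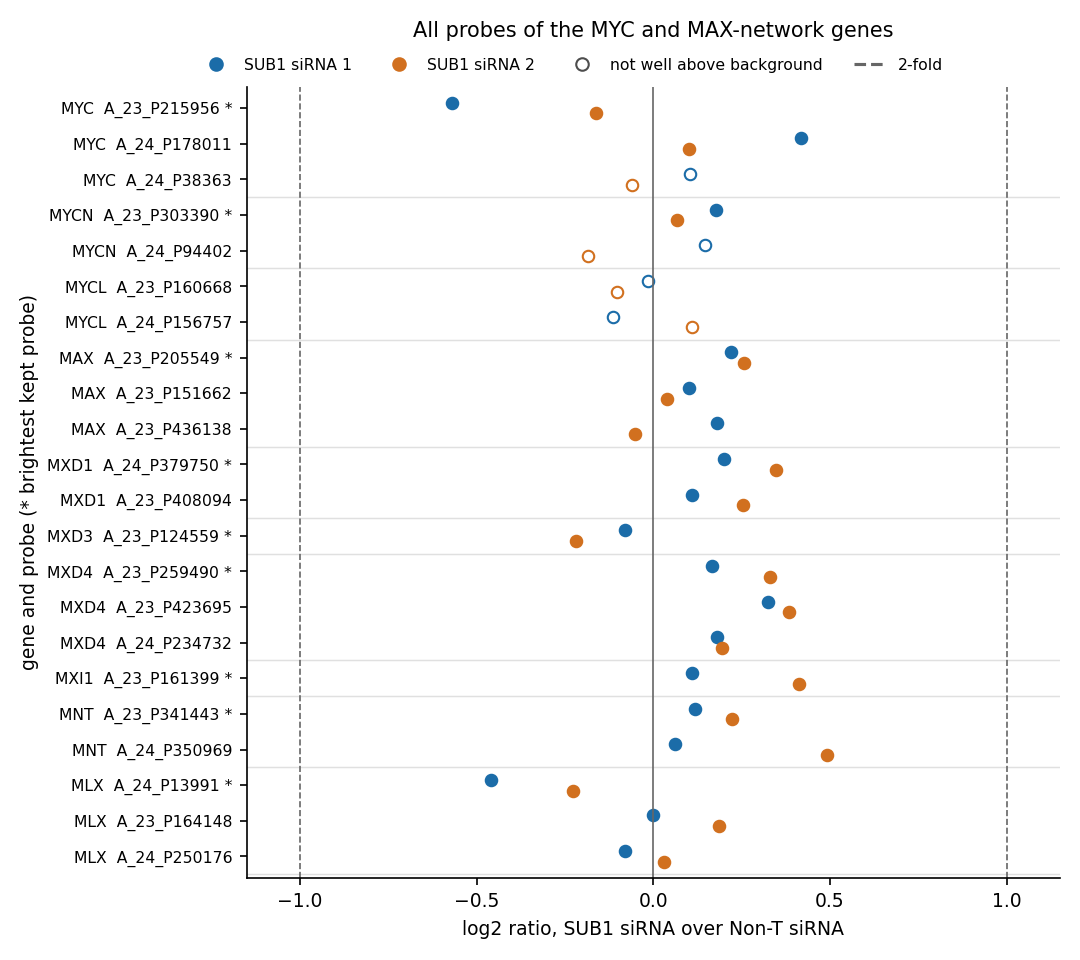
Log2 ratio, SUB1 knockdown over Non-T (horizontal axis), for each of the 22 probes (vertical axis, by gene), with siRNA 1 in blue, siRNA 2 in orange and open circles for probes not well above background. All points lie inside the dashed 2-fold lines, the MXD1, MXD4, MXI1 and MNT probes lie to the right of 0, and the kept MYC probes lie on opposite sides of it.

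MYC, the oncogene at the centre of the network, is represented by a probe near the 3′ end of its mRNA (NM_002467, hg18 chr8:128822450-128822509, plus strand) that was spotted 10 times. With siRNA 1 its 10 spots ran from -0.68 to -0.48 around a median of -0.58, and with siRNA 2 from -0.23 to -0.064 around a median of -0.17. The ranges of spots did not overlap between the arrays, and all spots were below 0 on both. Spots of an array are repeats within 1 hybridisation and leave out differences between cultures. The gap between the 2 MYC ratios was 0.41, and over all genes the SD of this gap was 0.31. In intensity normalized within and between the arrays, MYC went from 2018 in Non-T to 1360 in SUB1 siRNA 1 cells, 1.48-fold lower. On the other array it went from 2059 to 1839, 1.12-fold lower. After this normalization, the Non-T values of the arrays differed by 0.029 on the log2 scale. The SUB1 siRNA values differed by 0.43, with siRNA 1 the lower. Across all genes, the SD of these differences was 0.12 in Cy3 and 0.31 in Cy5. The siRNA 1 ratio stood at percentile 3.21 of all genes and the siRNA 2 ratio at percentile 24.2. The mean ratio was -0.37 (SE 0.13, limma adjusted p = 0.234).

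**Figure D2:**
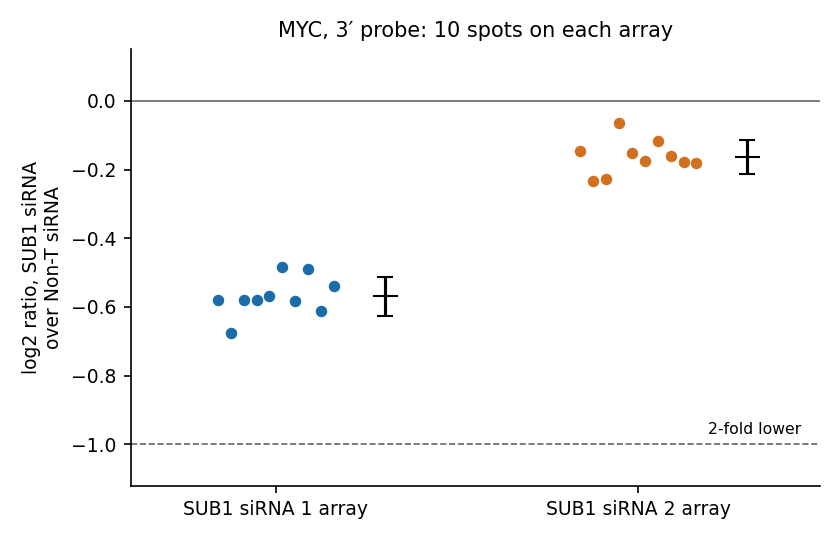
Log2 ratio, SUB1 knockdown over Non-T (vertical axis), for the 10 spots of the MYC 3′ probe on each array, with the mean and SD among spots as black bars. The siRNA 1 spots lie between -0.68 and -0.48 and the siRNA 2 spots between -0.23 and -0.064, with no overlap and none at 2-fold. Spots of an array are repeats within 1 hybridisation.

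The sign of the MYC ratio with siRNA 2 depended on the dye normalization. Before normalization, the mean signal of the same spots on the siRNA 1 array was 1994 for Cy3 and 1643 for Cy5. On the siRNA 2 array it was 1730 for Cy3 and 1901 for Cy5, so that Cy5 was the brighter channel there. With median centring of each array instead of loess, the MYC ratio was -0.33 with siRNA 1 and 0.091 with siRNA 2. Over the 7 ways of processing that give each probe a value, the gap between the arrays stayed between 0.39 and 0.42, while the siRNA 2 ratio ran from -0.17 to 0.091. Among these 7 ways, keeping outlier spots changed no network probe.

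A second MYC probe went the other way. It was designed to an mRNA record that starts at the upstream promoter P0 (M13930, hg18 chr8:128816997-128817056) and starts 5453 bases before the 3′ probe. Labelling was primed with oligo-dT from the 3′ end. This probe was dim, with 116 in Non-T and 155 in SUB1 siRNA 1 cells on the first array and 151 and 162 on the second. Its log2 ratios were 0.42 and 0.10. Here the Non-T values differed by 0.38 between the arrays and the SUB1 siRNA values by 0.066. The ratio was above 0 under all 7 ways of processing on both arrays, and with 1 spot per array it has no spread of its own. The mean of both kept probes gave MYC ratios of -0.076 and -0.030. The third MYC probe (hg18 chr8:128817639-128817698) was not well above background in either channel on either array.

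Of the other MYC genes, MYCN had small ratios above 0 and MYCL gave none. MYCN, best known from neuroblastoma and neuroendocrine prostate cancer, had 1 kept probe (NM_005378, hg18 chr2:15998259-15999522). Its 1264 bases of genome hold a 60-base probe, so the match is split over an intron. MYCN went from 1353 to 1532 on the siRNA 1 array and from 1298 to 1360 on the other, and its log2 ratios were 0.18 and 0.067 (mean 0.12, SE 0.098, limma adjusted p = 0.513). The second MYCN probe, at hg18 chr2:16004218-16004277, was not well above background anywhere. Both MYCL probes (hg18 chr1:40138940-40138999 and chr1:40138100-40138159, minus strand) were not well above background in any channel, so no ratio is given for MYCL.

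MAX, the shared dimer partner, was higher with both siRNAs at its brightest probe (NM_145113, hg18 chr14:64611756-64611815, minus strand). It went from 5972 to 6960 on the siRNA 1 array and from 6355 to 7592 on the other. The log2 ratios were 0.22 and 0.26 (mean 0.24, SE 0.095, limma adjusted p = 0.255). This was the smallest gap between the arrays among the 9 brightest probes, 0.036. The other MAX probes match other transcript variants. The probe for NM_197957 had 0.10 and 0.040, and the probe for NM_145114 had 0.18 and -0.052. On both arrays the highest MAX ratio was thus at the probe for NM_145113, and at the other probes the siRNA 2 ratio was within the spot error of 0.

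Most of the genes that compete with MYC for MAX had small ratios above 0. With siRNA 1, the brightest probes of MXI1, MNT, MXD4 and MXD1 stood at percentiles 64.8, 66.0, 73.3 and 77.4 of all genes. With siRNA 2 they stood at percentiles 91.7, 78.5, 87.6 and 88.5. MXD3 lay below 0 on both arrays at its 1 probe and is left out of the next count, which was therefore selected. The 8 kept probes of MXD1, MXD4, MXI1 and MNT (4 genes) were all above 0 on both arrays. Their medians were 0.14 with siRNA 1 and 0.34 with siRNA 2. Of all genes, taken by 1 probe each, 38.1% were above 0 on both arrays. With Feature Extraction's processed signals the second MXD1 probe was at -0.081 with siRNA 1. MXD1, the founding MYC antagonist and a gene of differentiating cells, went from 213 to 244 on the siRNA 1 array and from 229 to 291 on the other. The ratios were 0.20 and 0.35 (mean 0.27, SE 0.10, limma adjusted p = 0.234). Its second probe, which the array places over 777 bases of genome, had 0.11 and 0.25. Both MXD1 probes were dim.

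MXD4 had 3 probes, all above 0 on both arrays. The brightest went from 423 to 475 on the siRNA 1 array and from 428 to 539 on the other, ratios of 0.17 and 0.33 (mean 0.25, SE 0.10, limma adjusted p = 0.264). The others had 0.33 and 0.38, and 0.18 and 0.20. The first of these, at hg18 chr4:2221078-2221137, gave the lowest p of all 18 kept network probes when every probe was fitted by itself (limma adjusted p = 0.155). MXI1, which encodes another MAX-binding repressor, had 1 probe (hg18 chr10:112035935-112035991). It went from 443 to 478 on the siRNA 1 array and from 443 to 589 on the other. The equal Non-T values follow a normalization between the arrays, and the raw Cy3 signals were 466 and 397. The ratios were 0.11 and 0.41 (mean 0.26, SE 0.12, limma adjusted p = 0.292).

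MNT, the most widely expressed of the MAX-binding repressors, went from 972 to 1055 on the siRNA 1 array and from 998 to 1164 on the other at its brightest probe (NM_020310, hg18 chr17:2234326-2234385). The ratios were 0.12 and 0.22 (mean 0.17, SE 0.098, limma adjusted p = 0.379). A second probe, 5603 bases away and designed to another mRNA record (AF318360), had 0.061 and 0.49. Its siRNA 2 ratio was the highest of all 18 kept network probes on that array. MXD3, the family member linked to proliferating cells, was the exception among the repressors. It went from 176 to 166 on the siRNA 1 array and from 191 to 164 on the other, ratios of -0.081 and -0.22 (mean -0.15, SE 0.10, limma adjusted p = 0.441). The first of these was smaller than the spot SD of dim probes. It was 0.011 with median centring, where the median of all genes on that array was 0.13.

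**Figure D3:**
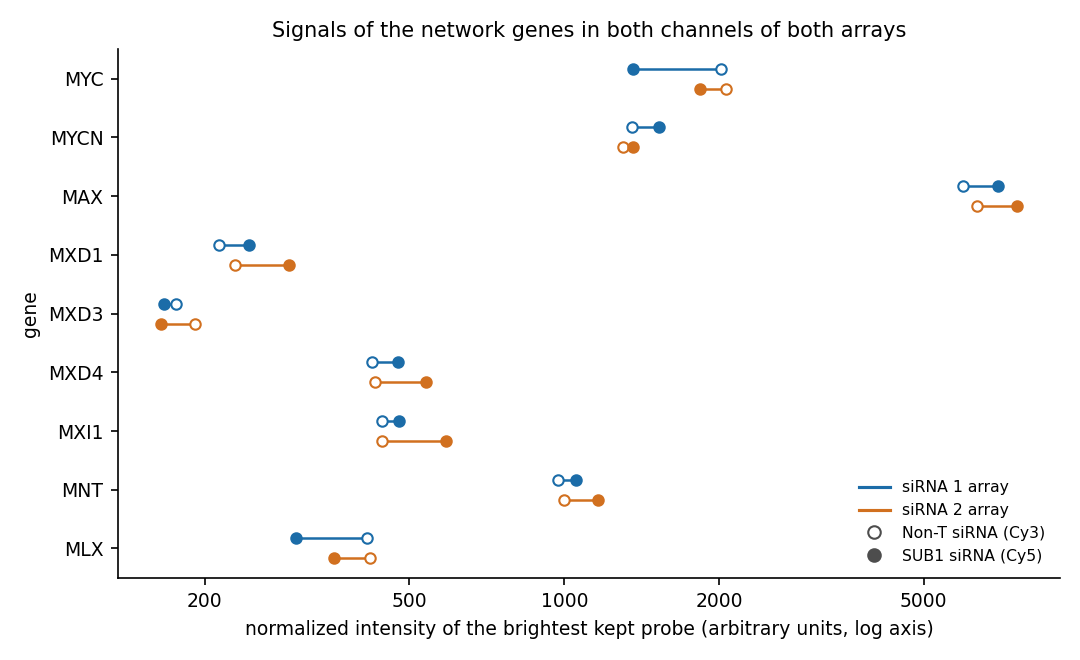
Normalized intensity (horizontal log axis, arbitrary units) of the brightest kept probe of each of 9 network genes, with open circles for Non-T siRNA (Cy3) and filled circles for SUB1 siRNA (Cy5) on the siRNA 1 (blue) and siRNA 2 (orange) array. MYC, MXD3 and MLX have the filled circle to the left on both arrays, the other 6 genes to the right, and intensities of different genes are not comparable.

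MLX, the partner of the glucose-sensing arm of the network, gave different values at its 3 probes. All 3 are listed under the same record (NM_170607, plus strand of chromosome 17). At the brightest probe (hg18 chr17:37975574-37975633) MLX went from 413 to 301 on the siRNA 1 array and from 418 to 357 on the other. The ratios were -0.46 and -0.23 (mean -0.34, SE 0.11, limma adjusted p = 0.196), the lowest adjusted p among the 9 genes. The other probes lie 2235 and 3048 bases downstream. The nearer had -0.00049 and 0.19, and the farther had -0.081 and 0.029. MLX was therefore below 0 on both arrays at 1 of 3 probes, and the mean of the 3 gave -0.18 and -0.0046.

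The remaining partners of MAX and MLX, named here for their place in the network after their values were seen, were measured too. MGA, a large MAX-binding repressor, had 0.33 and 0.36 at its brightest probe, while its others had -0.06 and -0.08, and 0.45 and 0.24. MLXIP, which pairs with MLX, had 0.19 with siRNA 1 and -0.27 with siRNA 2 at its brightest probe, while its others had -0.21 and -0.08, and -0.07 and -0.02. MLXIPL, the liver and fat counterpart of MLXIP, had 0.20 and 0.10. Of the wider list of 20 cofactors of the network, 19 were measured, and 9 were below 0 and 4 above 0 on both arrays, against 30.3% and 38.1% of all genes. The list medians were -0.063 and -0.15. RUVBL2, a helicase that MYC recruits, had -1.10 and -0.56 (limma adjusted p = 0.127). SIN3B, a scaffold for MXD repression, had -0.23 and -1.05 (limma adjusted p = 0.213). These were the only cofactors at 2-fold lower on an array, 1 on each, against 0.609% of all genes with siRNA 1 and 1.07% with siRNA 2.

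MYC protein is short-lived, and 22 genes for its stabilisation or degradation were measured. On both arrays 9 of these were below 0 and 3 above 0, against 30.3% and 38.1% of all genes, and the list medians of -0.050 and -0.085 lay within 0.11 of the median of all genes. PLK1, a mitotic kinase reported to stabilise MYC proteins, had -1.41 and -1.72 (limma adjusted p = 0.112), while its second probe had -0.16 and -0.30. AURKA, another mitotic kinase that shields MYCN from degradation, had -0.70 and -1.02 (limma adjusted p = 0.112). FBXW7, the ubiquitin ligase subunit that marks MYC for degradation, is named after its values were seen. It had 0.60 and 0.61 at its brightest probe and 0.12 and 0.23 at the other (limma adjusted p = 0.113). Next in the list by size of the mean ratio, and also named after their values were seen, were CIP2A and USP36. CIP2A had -0.50 and -0.58 (limma adjusted p = 0.119), and USP36 had 0.44 and 0.56 (limma adjusted p = 0.130).

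Genes that MYC is known to activate, mostly for ribosome production, nucleotide synthesis and metabolism, lay slightly low. Of 40 in the list 39 were measured, and 24 were below 0 on both arrays, against 30.3% of all genes. Taken by single array, 28 were below 0 with siRNA 1 and 32 with siRNA 2, where the median of all genes was 0.024 on both arrays. The list median was -0.15 on both arrays, and no gene of the list changed by 2-fold. BOP1, a ribosome assembly factor, had -0.43 and -0.80 (limma adjusted p = 0.136). IMPDH2, the enzyme that commits purines to guanine nucleotides, had -0.61 and -0.49 (limma adjusted p = 0.119). Relative to the median of all genes the list stood at -0.17 on both arrays, and with median centring at -0.021 and -0.052.

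Genes that MYC is known to repress lay higher. Of 18 listed, 15 were measured, 9 were above 0 and 2 below 0 on both arrays, against 38.1% and 30.3% of all genes, and the list medians were 0.22 and 0.35. CDKN1B, which encodes the cell-cycle inhibitor p27, had 0.71 and 1.21 (limma adjusted p = 0.113), with 0.27 and 0.34 at its second probe. It was the only gene of the list at 2-fold higher, with siRNA 2, against 0.208% of all genes with siRNA 1 and 0.614% with siRNA 2. THBS1, a secreted inhibitor of blood vessel growth, had 0.72 and 0.78 (limma adjusted p = 0.112), with 0.23 and 0.29 at its second probe. ITGB1, an integrin subunit named after its values were seen, was the only gene of the list at 2-fold lower on an array, with -1.08 and -0.18. With the mean of each gene's kept probes, the list medians fell to 0.033 and 0.15 above that of all genes.

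The targets of the MLX arm were few. Of 6 listed, 5 were measured, and 4 were above 0 on both arrays, against 38.1% of all genes, with medians of 0.13 and 0.058. TXNIP, the best known target of MLXIP and also in the list of MYC-repressed genes, had 0.29 and 0.46 (limma adjusted p = 0.167). G0S2, an inhibitor of fat breakdown, had 0.084 with siRNA 1 and -1.22 with siRNA 2 (limma adjusted p = 0.373). No gene of the 5 lists around the network passed an adjusted p of 0.05 in limma, and at an unadjusted p under 0.05 stood 7 cofactors, 6 turnover genes, 12 MYC-activated genes, 8 MYC-repressed genes and 1 MLX-arm target, of 19, 22, 39, 15 and 5 measured, beside 20.9% of all genes.

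Other gene groups moved on the same arrays, and their part in the values of the network was not tested. All 20 proliferation genes were below 0 on both arrays, with medians of -0.75 and -1.03, and 4 were at least 2-fold lower with siRNA 1 and 12 with siRNA 2, against 0.609% and 1.07% of all genes. CENPF had -1.26 and -1.55, CDK1 had -1.04 and -1.76, RRM2 had -1.14 and -1.25, and CCNB1 had -1.08 and -1.002. The second probes were short of 2-fold, with -0.59 and -0.54 for CENPF and -0.41 and -0.48 for RRM2. All 20 interferon-stimulated genes were above 0 with siRNA 2, with a median of 0.64 and 7 of them at least 2-fold higher, against 0.614% of all genes, while the siRNA 1 median was -0.021. RTP4 had 0.67 and 2.01, and ISG15 had 0.67 and 1.83. Both of these list medians lay nearer 0 on the siRNA 1 array.

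**Figure D4:**
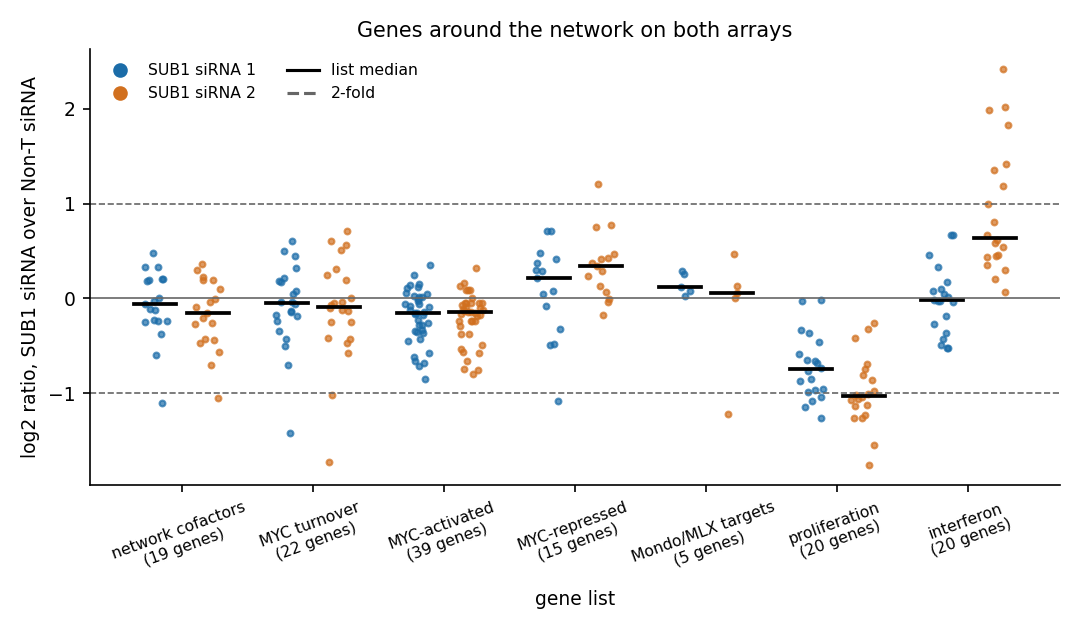
Log2 ratio, SUB1 knockdown over Non-T (vertical axis), for each measured gene of 7 lists (horizontal axis), with siRNA 1 in blue, siRNA 2 in orange, black bars for list medians and dashed lines at 2-fold. The lists around the network lie mostly inside the dashed lines with medians between -0.15 and 0.35, while the proliferation medians are -0.75 and -1.03.

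The direction of each network gene's mean ratio was the same under all 11 other ways of processing. Of these, the eBayes settings cannot change a mean. Keeping outlier spots or leaving out the filter on dim probes left every network mean as reported. MYC ran from -0.38 to -0.053, and the value nearest 0 came from the mean of its kept probes. MLX ran from -0.35 to -0.092 and MXD3 from -0.32 to -0.056. The higher genes ran from 0.11 for MYCN to 0.56 for MAX, and MXD4 from 0.25 to 0.43. The lowest limma adjusted p that any of the 9 genes reached was 0.0768, for MAX with median centring, which also gave its 0.56. In that setting the median of all genes was itself 0.13 with siRNA 1 and 0.12 with siRNA 2. There, 5707 of all genes had an unadjusted limma p under 0.05.

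**Figure D5:**
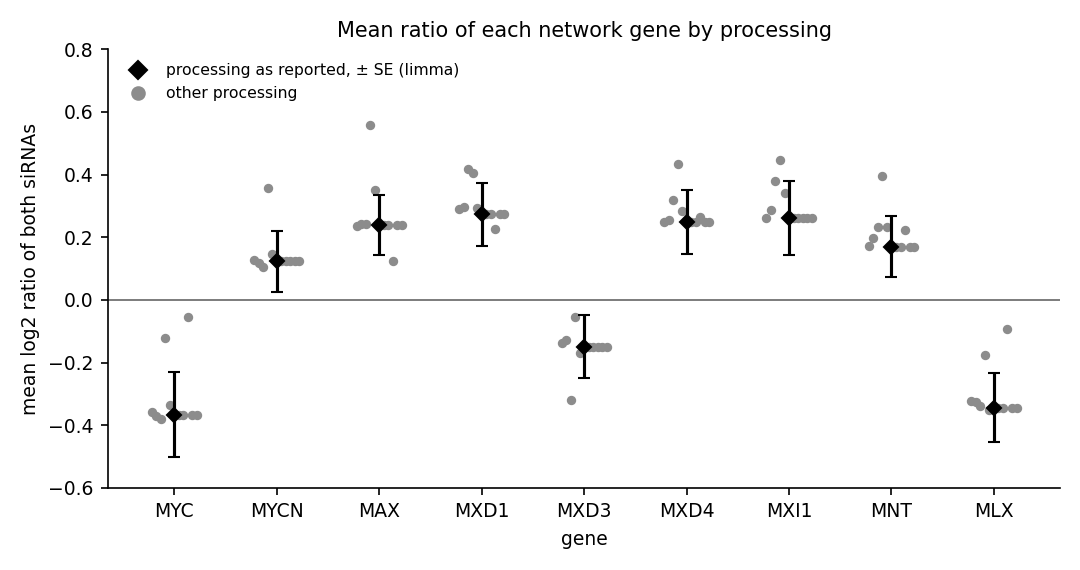
Mean log2 ratio of both siRNAs (vertical axis) for 9 network genes (horizontal axis), with diamonds and SE bars from limma for the reported processing and grey points for the other ways of processing. No gene's points lie on both sides of 0, and the MYC and MLX points nearest to 0 are the means of their probes.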

How the data were processed

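RNA of PC3 cells was hybridised to 2 dual-colour arrays, 1 for each SUB1 siRNA (Cy5) against Non-T siRNA (Cy3). The authors deposited the scanner output of Agilent Feature Extraction 9.5.1.1, which gives spot intensity and local background intensity per channel. The authors also deposited a table of log2 ratios, made by loess on each array with agilp per the methods, whose 41000 matched probes correlated with Cy5 over Cy3 (r = 0.958 and 0.970), with column medians of -0.0054 and -0.0068. It served as an alternative.

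Mean spot signals were background-corrected here by normexp (offset 50, limma 3.58.1, R 4.3.3), control spots were dropped, and ratios were normalized by loess (span 0.3) within each array. Outlier spots (112 and 100) were left out and spots of a probe averaged. The normalized intensities given per channel had a further quantile normalization between the arrays (limma's Aquantile), which leaves the ratios as they are. Each array had 43376 gene spots and none was saturated. A probe was kept if, on each array, either channel had at least 0.5 of its spots well above background (25673 probes). The brightest probe stood for each of 19218 genes, 13129 named through RefSeq GRCh38.p14 and 6089 by the file. Probe coordinates are those of the array design (hg18). The rule for change was 2-fold on an array, after the study's methods. The mean ratio was tested against 0 with limma (lmFit, eBayes, two-sided, Benjamini-Hochberg over all genes). The fit was tested on simulated data, and its recovery of changed genes depended on the variances assumed. The number of arrays limits the precision.

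The network genes and the lists were chosen with earlier results of these data known. Every network gene is named, and from each list the 2 genes with the largest absolute mean ratio and those 2-fold changed in the same direction on both arrays. Other genes named after their values were seen are marked so in the text. Alternatives were other background, signal, dye normalization, filter, probe and eBayes settings and leaving out an array. A further list of marker genes is not reported here.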

Additional observations from a re-analysis of the deposited data

How the results depend on the processing

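No network gene reached 2-fold or an adjusted p of 0.05 in limma under any setting tried, 6 network genes stayed above 0 on both arrays, and the count below 0 on both was 1 with median centring in place of loess, since MYC turned above 0 with siRNA 2 and MXD3 with siRNA 1. Of 530 comparisons with an alternative, 456 stayed the same, 69 moved and 5 reversed. The 456 include settings that could not move a value, such as eBayes settings for a mean ratio. The causes were not tested. Median centring put the median of all genes at 0.13 and 0.12, in place of 0.024 on both arrays, so list medians are given relative to it. The MYC ratio of 0.091 with siRNA 2 and the MXD3 ratio of 0.011 with siRNA 1 stayed below that median. The reversed medians were those of the MLX-arm targets with siRNA 2 (-0.077 with Feature Extraction's processed signals, -0.076 with median centring, -0.042 in the authors' table) and of the interferon list with siRNA 1 (0.17 with median centring, 0.11 in the authors' table). With median centring, the MYC-activated list had -0.021 and -0.052, the MYC-repressed list 0.42 and 0.46, the MLX-arm targets 0.18 with siRNA 1, and with siRNA 2 the cofactors had -0.024, the turnover list -0.029, the proliferation list -0.94 and the interferon list 0.85. With processed signals, the proliferation list had -1.07 and -1.32, the MLX-arm targets 0.25 with siRNA 1, and 1076 and 1468 of all genes were 2-fold changed in place of 157 and 323. In the authors' table the MYC-repressed list had 0.28 with siRNA 1 and the interferon list 0.77 with siRNA 2. With the mean of all probes the MYC-repressed list had 0.033 and 0.15, and with median signals the proliferation list had -0.98 with siRNA 2. Of the 2-fold changed genes, 25.5% and 36.5% were higher, against 72.3% and 67.7% with processed signals, 71.0% and 72.5% with median centring and 36.7% and 47.4% in the authors' table. In limma, 0 genes passed an adjusted p of 0.05 with no background correction, median signals, processed signals, median centring or the authors' table (4077, 4023, 3902, 5707 and 4141 at an unadjusted p under 0.05), and 3 probes when every probe was fitted. Leaving out an array leaves the other siRNA's ratio with no test, which for MYC was -0.57 or -0.16 and for MXI1 0.11 or 0.41. No paired analysis was possible because there was 1 array for each siRNA and the replicate numbers link no arrays; each ratio is itself a comparison within an array, and both arrays lay on 1 slide, so no slide block was fitted. Network probes not well above background (1 of MYC, 1 of MYCN and both of MYCL) gave no ratio.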
